A study of Mus musculus with 6 samples.

Results

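The genes of itaconate synthesis and arginine metabolism were followed in adherent mouse bone marrow cells given heme. They are Acod1, Slc7a2, Arg1, Arg2, Nos2, Ass1, Asl and Odc1, 8 genes listed by their place in these pathways among 19936 genes with a probe set of their own. For each, the probe set that names only that gene was taken, or the brighter on average over the 6 arrays where a gene had several. Such a probe set existed for 7 of the 8. Both probe sets for Ass1 also name Gm5424, so no value is given for it. The level of Nos2 stayed below 5.37, the median of all values, on every array, and a level under that median is not shown to be above background here. The remaining 6 genes passed this filter, and each passed it on both heme and vehicle arrays.

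All arrays came from Spic(igfp/igfp) mice, so the controls carry the altered Spic allele too and no wild-type culture was compared. The marrow cultures contained GM-CSF (20 ng/ml), which drives growth of macrophages and dendritic cells. On day 6 heme was added to some cultures, at a dose labelled 80 µm that was read as µM. The others received its solvent, called vehicle here, which was 10% NH4OH in 0.15 M NaCl. Adherent cells were harvested at 6, 24 and 72 h, which gave 1 heme array and 1 vehicle array at each time. Levels are deposited log2 values, where a difference of 1 is 2-fold, and differences are heme minus vehicle. No treatment was repeated at any time, so a difference at 1 time point has no error. Over the 3 time points, a mean ± SD (n = 3 time points) and a limma fit with treatment and time as terms were used, with Benjamini-Hochberg adjustment over 11516 genes. Time points are not replicates, so these p-values set the mean difference against how much it varied with time, moderated by the spread of other genes. They do not measure variation between cultures given the same treatment. In this fit 198 genes passed an adjusted p of 0.05, 130 up and 68 down. Cyclic loess normalization gave 115 up and 36 down instead. Array medians ran from 5.34 to 5.45, highest on the 6 h heme array, and over all genes the median heme minus vehicle differences at 6, 24 and 72 h were -0.10, -0.02 and 0.03. Median-centring moved the 6 h value to -0.22, so small differences at 6 h have no sure sign relative to other genes.

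Macrophages make itaconate by decarboxylating cis-aconitate, an intermediate of the tricarboxylic acid cycle, through the enzyme that Acod1 encodes. Itaconate slows succinate dehydrogenase and modifies cysteines of proteins such as KEAP1, and Acod1 is known for its strong response to bacterial products and interferons. Arginine enters activated macrophages largely through the cationic amino acid transporter encoded by Slc7a2. There it is turned into nitric oxide and citrulline by the inducible synthase NOS2, or into ornithine and urea by the arginases ARG1, in the cytosol, and ARG2, in mitochondria. ASS1 and ASL rebuild arginine from citrulline, and ODC1 turns ornithine into putrescine, the first polyamine. In mouse macrophages high Nos2 is a textbook sign of activation by LPS and interferon gamma, and high Arg1 of activation by IL-4.

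Promoter windows of 300 bases, from 250 before to 50 after the annotated start, were held in the RefSeq table (GRCm38.p6) for 3 of the 8 genes, Acod1, Ass1 and Odc1. Those of Acod1 and Odc1 are shown because they belong to the member with the largest heme difference and to one that was lower with heme. The Acod1 window is chr14:103046762-103047061 and the Odc1 window is chr12:17544623-17544922, both on the plus strand, and capitals mark the motifs found.
Acod1: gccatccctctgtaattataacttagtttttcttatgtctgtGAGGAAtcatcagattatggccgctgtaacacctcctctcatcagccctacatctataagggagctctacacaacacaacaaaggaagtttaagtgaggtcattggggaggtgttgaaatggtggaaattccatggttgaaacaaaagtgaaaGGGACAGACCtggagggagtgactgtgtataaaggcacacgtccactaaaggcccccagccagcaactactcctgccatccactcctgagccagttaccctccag
Odc1: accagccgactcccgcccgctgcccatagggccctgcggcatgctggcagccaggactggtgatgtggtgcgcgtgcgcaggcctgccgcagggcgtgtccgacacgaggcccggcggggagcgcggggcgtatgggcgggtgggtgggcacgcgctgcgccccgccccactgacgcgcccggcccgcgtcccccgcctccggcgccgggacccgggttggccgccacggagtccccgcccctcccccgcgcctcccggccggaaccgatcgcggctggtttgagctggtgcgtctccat
Both strands were searched for the kappaB site of NF-kB (GGGA, any 4 bases, then CC), AP-1 (TGANTCA), the antioxidant response element core (TGACNNNGC), the interferon gamma activated site (TTCNNNGAA), CREB and ATF (TGACGTC), C/EBP with ATF4 (TGATGNAA), the E-box of MYC (CACGTG) and the core of PU.1 and SPI-C (GAGGAA). The Acod1 window held 1 kappaB match, GGGACAGACC, at position -55 relative to the annotated start, and 1 PU.1 and SPI-C core, at -208, which do not overlap. The Ass1 window held 1 kappaB match, at -152, and 1 E-box, at -36, and the Odc1 window held none of the 8 motifs. Of 32851 promoter windows in the table, 20.7% held the kappaB letters and 28.3% the PU.1 and SPI-C core, so both are common by these letters, and 7.15% held the E-box. A match describes the sequence only, and a missing match says only that those letters are not in the window.

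With heme, Acod1 was far higher early and its excess shrank with time, whereas Arg2 was higher at 24 and 72 h, Arg1 at 72 h, and Slc7a2 was lower at 24 and 72 h. Acod1 (probe set 10416837) had levels of 10.58, 9.75 and 7.01 on the heme arrays of 6, 24 and 72 h, against 6.27, 6.00 and 5.65 on the vehicle arrays. Every heme level lay above every vehicle level, with 0.74 between the lowest heme and the highest vehicle array. Among all genes tested, 5.4% had their heme arrays entirely above their vehicle arrays. The differences of 4.31, 3.74 and 1.36 correspond to 19.8-fold, 13.4-fold and 2.56-fold. At 6 h this was the highest of the 11516 differences, at 24 h it ranked 5 and at 72 h it ranked 71. More cells of a type and more RNA per cell cannot be told apart in such bulk samples, nor can fewer cells and less RNA per cell.

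Acod1 rose by 3.14 ± 1.57 on the log2 scale over the 3 time points (SD, n = 3; limma, adjusted p = 0.0106), the only one of the 6 genes to pass, against 1.72% of all genes tested (1.13% upwards and 0.59% downwards). The call was lost without the 24 h pair of arrays (2.83; limma, adjusted p = 0.255), with robust eBayes (limma, adjusted p = 0.267) and without the time term (limma, adjusted p = 0.381), while every alternative kept the direction. At an unadjusted p below 0.05 in limma, 4 of the 6 genes passed, against 10.6% of all genes.

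**Figure D1:**
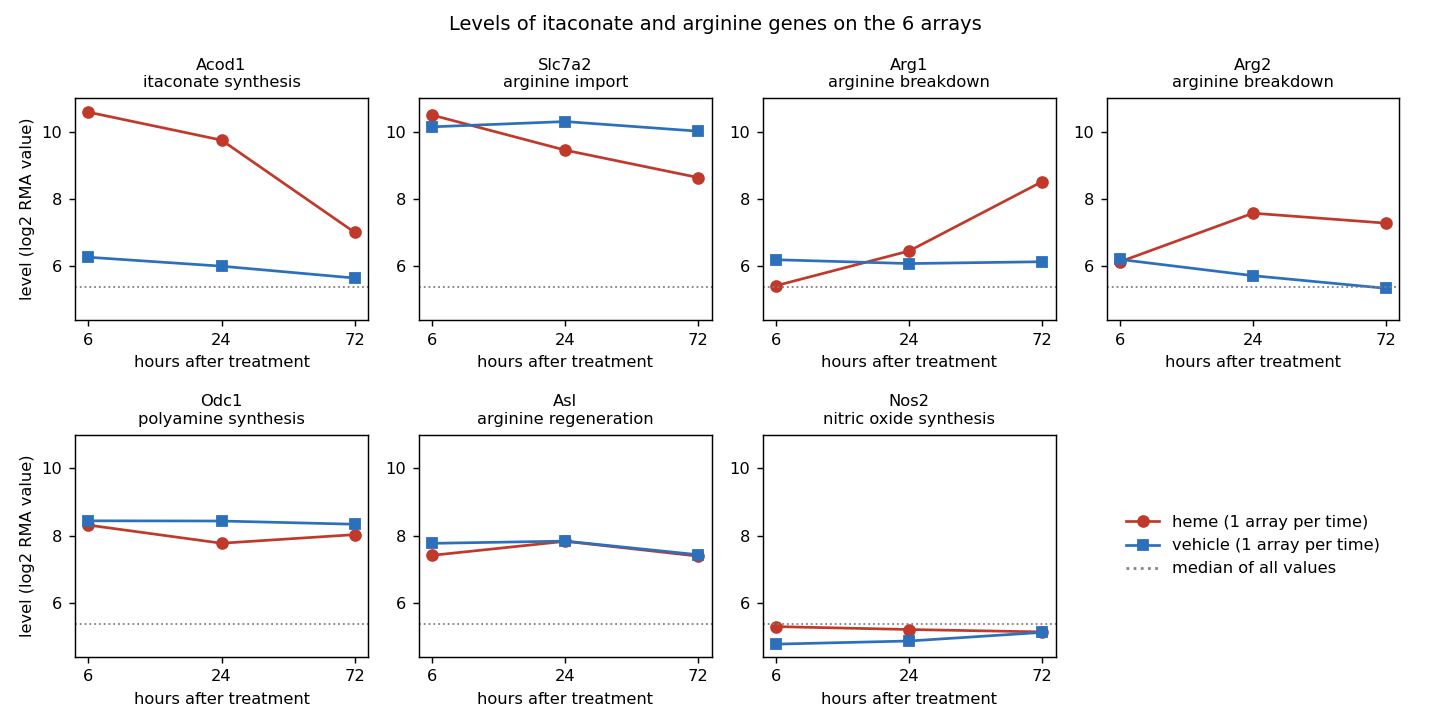
Log2 level of each of the 7 genes with a probe set of its own at 6, 24 and 72 h, with heme as red circles and vehicle as blue squares (1 array per point, no error bars). The dotted line is the median of all values, 5.37. Acod1 starts at 10.58 with heme and declines, Arg1 climbs to 8.52 with heme at 72 h, and Nos2 stays under the line on all arrays.

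For Acod1, the level at 72 h minus that at 6 h was -3.57 on heme arrays and -0.62 on vehicle arrays. The difference shared by both treatments, 72 h minus 6 h, was -2.09 with a standard error of 0.54 and did not pass (limma, adjusted p = 0.0543), although it did with median-centring (limma, adjusted p = 0.0046), with a stricter level filter (limma, adjusted p = 0.0309) and with the mean of probe sets (limma, adjusted p = 0.0454). For 24 h minus 6 h it was -0.55 (limma, adjusted p = 0.75).

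Slc7a2 (10571444), the transporter that brings arginine in, had heme levels of 10.49, 9.45 and 8.63 at 6, 24 and 72 h, against vehicle levels of 10.14, 10.30 and 10.01. The vehicle arrays stayed close together, whereas the heme arrays were lower at each later time, and at 24 and 72 h they lay below all vehicle arrays. The differences were 0.35, -0.85 and -1.38, and at 72 h the level was 2.60-fold lower with heme, the decrease that ranked 20 of 11516. The mean difference was -0.63 ± 0.88 (SD, n = 3) and did not pass (limma, adjusted p = 0.455). With the 6 h pair left out it was -1.11 and passed (limma, adjusted p = 1.61e-05), whereas it was -0.52 without the 24 h pair (limma, adjusted p = 0.997) and -0.25 without the 72 h pair (limma, adjusted p = 0.741). The fit without the 6 h pair has 1 residual degree of freedom and a prior of 46.9, so its adjusted p-values, also for the arginases, rest mostly on the spread of other genes.

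Arg1 (10368343), the cytosolic arginase, had heme levels of 5.42, 6.45 and 8.52 at 6, 24 and 72 h, against vehicle levels of 6.19, 6.08 and 6.13. It was therefore below vehicle at 6 h and above it at 72 h, over a vehicle level that hardly moved. The differences were -0.77, 0.37 and 2.38, which is 1.71-fold lower with heme at 6 h and 5.21-fold higher at 72 h, and the 72 h increase ranked 17 of 11516. The heme level at 6 h lay just above the median of all values. The mean of 0.66 ± 1.60 (SD, n = 3) did not pass (limma, adjusted p = 0.728). Without the 6 h pair the mean was 1.38 and passed (limma, adjusted p = 2.19e-05), and without the 72 h pair it was -0.20 (limma, adjusted p = 0.791), so its sign over time rests on the 72 h arrays.

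Arg2 (10396831), the mitochondrial arginase, had heme levels of 6.13, 7.58 and 7.28 at 6, 24 and 72 h, against vehicle levels of 6.20, 5.72 and 5.34. Heme and vehicle were close at 6 h and apart at both later times. The differences were -0.07, 1.86 and 1.94, which is 3.62-fold at 24 h and, because the 72 h vehicle level was under the median of all values, at least 3.74-fold at 72 h. These increases ranked 52 and 30 of 11516. The mean of 1.24 ± 1.14 (SD, n = 3; at least 1.23) did not pass (limma, adjusted p = 0.137), but it did with median-centring (1.20; limma, adjusted p = 0.0361) and without the 6 h pair (1.90; limma, adjusted p = 1.47e-11). The arginases thus differed in timing, with Arg2 already higher at 24 h, when the Arg1 difference was 0.37, and this contrast between the genes was not tested.

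Nos2 (10379228), the inducible nitric oxide synthase, had levels of 5.30, 5.21 and 5.14 on the heme arrays and 4.78, 4.87 and 5.12 on the vehicle arrays. All 6 lay below the median of all values, so no fold is given and a low level of Nos2 RNA could go unseen. Asl (10534120), which releases arginine from argininosuccinate, had heme levels of 7.41, 7.83 and 7.39 against vehicle levels of 7.77, 7.84 and 7.43. Its differences of -0.36, -0.01 and -0.04 gave a mean of -0.13 ± 0.19 (SD, n = 3; limma, adjusted p = 0.863). The groups overlapped. The 24 h difference was slightly above 0 after a second quantile normalization (0.05) and after cyclic loess (0.06).

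Odc1 (10582295), the entry enzyme of polyamine synthesis, had heme levels of 8.31, 7.77 and 8.03 against vehicle levels of 8.44, 8.43 and 8.34. Every heme array lay below every vehicle array, if narrowly, as did those of 5.85% of all genes. The differences of -0.13, -0.66 and -0.31 gave a mean of -0.37 ± 0.27 (SD, n = 3) that did not pass (limma, adjusted p = 0.406), and without the 24 h pair the mean was -0.22 (limma, adjusted p = 0.997). A dimmer probe set for the same gene (10394770) had differences of -0.14, -0.70 and -0.31, with the same signs and nearly the same sizes.

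**Figure D2:**
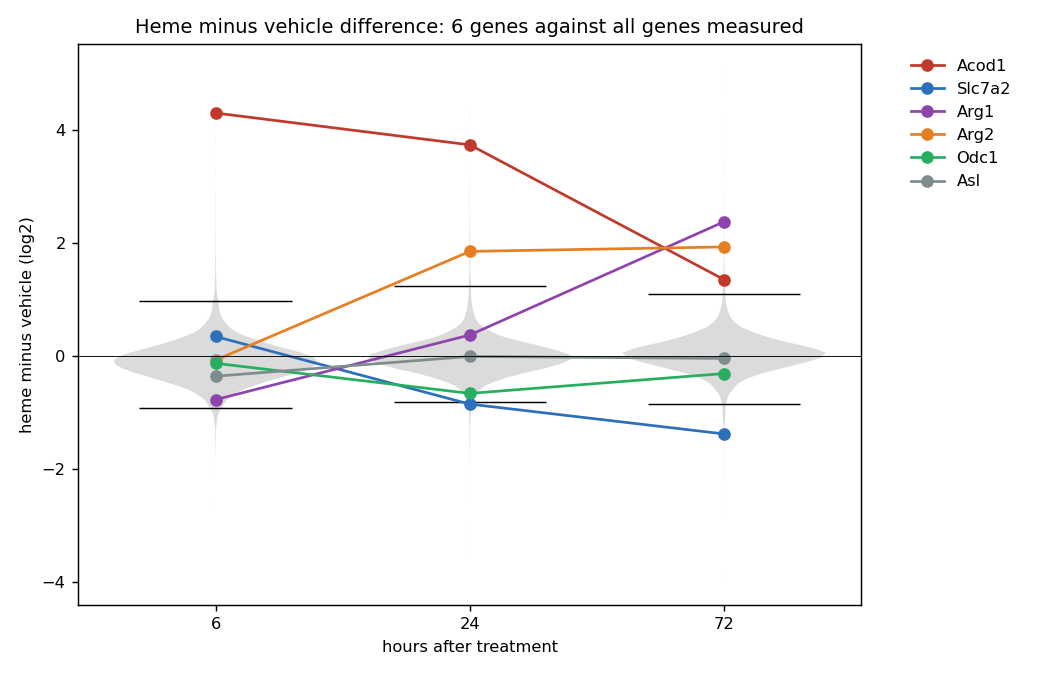
Heme minus vehicle difference (log2) of the 6 genes above the level filter at 6, 24 and 72 h, 1 pair of arrays per time. Grey shapes show all 11516 genes and black bars their percentiles 1 and 99. At 6 h Acod1 alone of the 6 lies outside the bars, while at 72 h Acod1, Arg1 and Arg2 lie above the upper bar (1.10) and Slc7a2 below the lower one (-0.84).

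At a threshold of 2-fold, 1 of the 6 genes was higher with heme at 6 h (Acod1), against 0.964% of all genes. At 24 h 2 were higher (Acod1 and Arg2), against 1.42%. At 72 h 3 were higher (Acod1, Arg1 and Arg2), against 1.25%, and 1 was lower (Slc7a2), against 0.608%. No gene of the 6 was 2-fold lower at 6 or 24 h, where 0.669% and 0.486% of all genes were. The median difference of the 6 was -0.10, 0.18 and 0.66 at 6, 24 and 72 h, beside -0.10, -0.02 and 0.03 over all genes.

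Whether the heme difference of each gene moved with time was asked with a slope, a test added after the values were seen. Against log2 hours the slopes were -0.80 for Acod1, 0.87 for Arg1, 0.58 for Arg2 and -0.49 for Slc7a2 per doubling of time, and none passed (limma, adjusted p = 0.218, 0.123, 0.269 and 0.195). On that scale 0% of all genes passed in limma, and 11.1% had an unadjusted p below 0.05. Against the order of the time points, 13.1% of all genes were below an unadjusted p of 0.05 in limma and 1.8% passed after adjustment, among them Arg1 (slope 1.58; limma, adjusted p = 3.57e-07), Acod1 (-1.48; limma, adjusted p = 9.68e-06), Arg2 (limma, adjusted p = 0.00196) and Slc7a2 (-0.86; limma, adjusted p = 0.00292). Asl and Odc1 passed on neither scale, with slopes between -0.09 and 0.16. Both fits leave 1 residual degree of freedom, with priors of 6.40 and 31.5 degrees of freedom, so the call depends on how time is scaled.

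The arrays were also compared over time within each treatment. On the heme arrays the level at 72 h minus that at 6 h was 3.09 for Arg1, -1.86 for Slc7a2, 1.15 for Arg2, -0.28 for Odc1 and -0.02 for Asl. On the vehicle arrays it was -0.06 for Arg1, -0.13 for Slc7a2, -0.86 for Arg2, -0.10 for Odc1 and -0.34 for Asl. Arg1 and Slc7a2 were thus nearly level on the vehicle arrays, and Arg2 had opposite signs with and without heme. Over both treatments, 0 of the 6 genes passed for 24 h minus 6 h, against 0.599% of all genes, while 0 were below an unadjusted p of 0.05 (limma), against 12.9%. For 72 h minus 6 h 0 passed, against 6.59%, while 3 (Acod1, Slc7a2 and Arg1) were below an unadjusted p of 0.05 (limma), against 18.5%. With median-centring the 69 genes of the first contrast, 26 up and 43 down, became 82 up and 89 down.

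By Pearson correlation over the 6 arrays, among 1506 other genes whose levels spanned at least 1, the patterns closest to Acod1 were those of Nampt (r = 0.983), the enzyme of NAD salvage, the LIM-domain cofactor Lmo4 (0.977) and Arhgap31 (0.973). Their levels spanned 1.22, 1.37 and 1.16, against 4.93 for Acod1. The closest to Arg1 were Pcolce (0.980), an enhancer of procollagen processing, the sphingosine 1-phosphate receptor S1pr1 (0.978) and the fractalkine receptor Cx3cr1 (0.961). S1pr1 had heme levels of 5.50, 7.03 and 9.27 against vehicle levels of 6.21, 5.79 and 6.57, and like Arg1 was below vehicle at 6 h. For Arg2 they were the zinc importer Slc39a4 (0.967), the glycogen branching enzyme Gbe1 (0.951) and the matrix protein Tgfbi (0.949). For Slc7a2 they were the retinol carrier Rbp4 (0.963), the surface protein Cd24a (0.960) and the GTPase Rras2 (0.944). All genes are read on the same 6 arrays, and 6 points allow many high correlations, so these are descriptions.

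**Figure D3:**
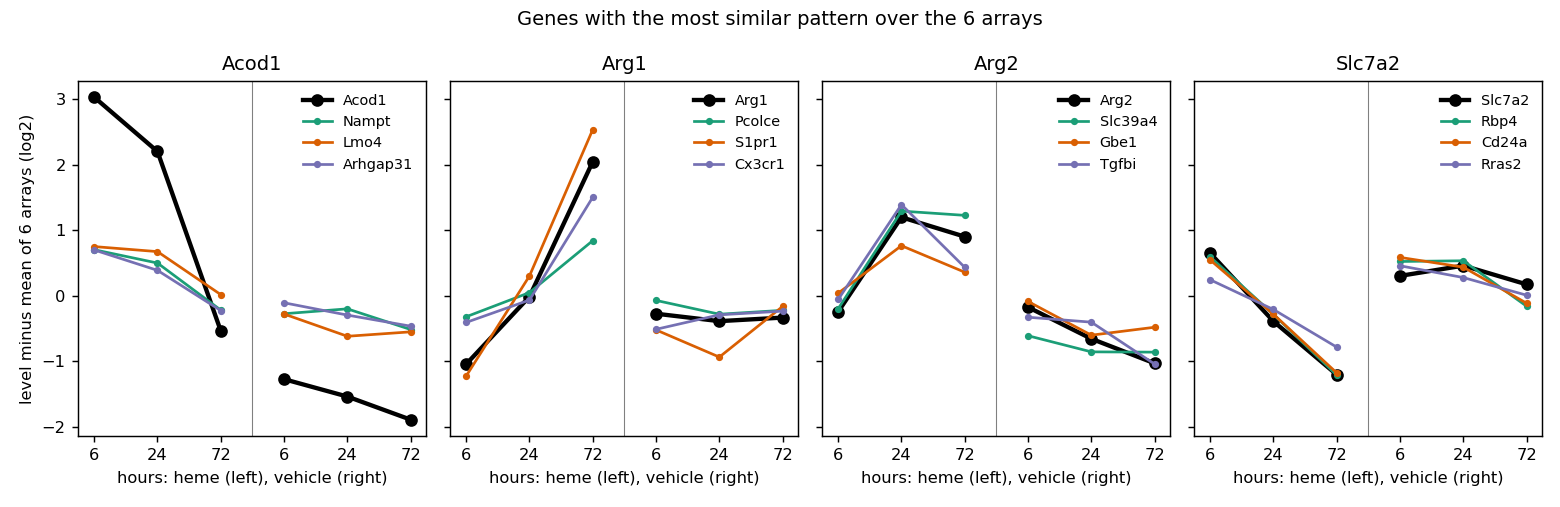
Log2 level minus the mean of the 6 arrays for Acod1, Arg1, Arg2 and Slc7a2 (black) and for the 3 genes closest to each (colours), with heme at 6, 24 and 72 h on the left of each panel and vehicle on the right, 1 array per point. The companions of Acod1 have a smaller span than it (1.16 to 1.37, against 4.93), and S1pr1 exceeds the span of Arg1.

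Most genes in the pathways around these 8 did not pass the test, and neither did 11318 of all 11516 genes. Of 15 genes of arginine transport, the urea cycle and the proline branch, 11 had a usable level. Of these 1 rose, 0 fell and 10 did not pass, while 1.13% of all genes rose and 0.59% fell. The one that rose was Slc3a2, the heavy chain that pairs with the arginine and leucine exchangers Slc7a6 and Slc7a7 and with other light chains. It had heme levels of 10.66, 10.50 and 10.38 against vehicle levels of 9.81, 9.52 and 9.89. Every heme array thus lay above every vehicle array, as for 5.4% of all genes. The mean difference was 0.77 ± 0.25 (SD, n = 3; limma, adjusted p = 0.0358). Without the 24 h pair that call was lost (limma, adjusted p = 0.497). Slc7a6 and Slc7a7 had mean differences of -0.03 and -0.02 (limma, adjusted p = 0.967 and 0.987), and Slc7a1, the cationic transporter found in most cells, one of -0.01 (limma, adjusted p = 0.994). These and other list genes that did not pass were picked for mention after their values were seen, except the one with the largest mean difference in a list without calls. The urea cycle genes Otc and Cps1 stayed below the level filter. The list had a median difference of 0.03, 0.02 and -0.04 at 6, 24 and 72 h.

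Polyamine genes showed 0 of 12 past the test (of 17 listed), with medians of -0.05, 0.00 and -0.08. The largest mean difference was that of spermine oxidase, Smox, which had heme levels of 6.84, 7.24 and 7.39 against vehicle levels of 6.42, 6.83 and 6.97. Its difference was nearly the same at each time, 0.42 ± 0.01 (SD, n = 3; limma, adjusted p = 0.221). Genes of nitric oxide synthesis and its cofactor tetrahydrobiopterin also had 0 of 10 past the test (of 12 listed), with medians of -0.04, 0.01 and 0.06. Gchfr, the feedback regulator of the cofactor's first enzyme, had differences of -0.55, -0.16 and -1.30. Its heme level at 72 h was below the median of all values, so that its mean decrease was at least 0.52 (bound -0.52; limma, adjusted p = 0.204). It passed without the 6 h pair (-0.73; limma, adjusted p = 0.0172). Gch1, that first enzyme, was higher at each time, by 0.32, 0.42 and 0.45 (limma, adjusted p = 0.252). The endothelial synthase Nos3 did not reach the level filter.

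Tricarboxylic acid cycle and itaconate handling genes were mostly lower with heme at 6 h, without passing the test over time. Of 26 with a usable level (29 listed), 22 had a negative difference at that time, or 84.6% against 63.5% of all genes, and the median was -0.46 against -0.10. At 24 and 72 h the medians were 0.09 and 0.04, and 0 of 26 passed over the 3 time points (limma). Without the 6 h pair, where 322 of all 11516 genes rose, 1 of the list did (Auh, 0.60; limma, adjusted p = 0.0402), an enzyme of leucine breakdown. The lowest differences at 6 h were those of Suclg2, a subunit of succinyl-CoA ligase (-1.18), isocitrate dehydrogenase Idh2 (-0.76) and the mitochondrial dicarboxylate carrier Slc25a10 (-0.65). Subunits of succinate dehydrogenase, Sdha, Sdhb, Sdhc and Sdhd, had differences of -0.30, -0.52, -0.20 and -0.57 at 6 h. Abcg2, an exporter of small molecules, had the largest mean difference of the list, -0.55 ± 0.25 (SD, n = 3; limma, adjusted p = 0.136). Among the 6 arrays that of heme at 6 h also had the smallest spread (SD 2.19, against 2.21 to 2.25), and the part of this in the shift was not tested.

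Genes of classical activation by LPS and interferon gamma, the setting in which Acod1 and Nos2 are best known, had 4 of 15 members that rose (20 listed), 0 that fell and 11 that did not pass, against 1.13% of all genes upwards. Their medians were 1.01, 0.55 and 0.36 at 6, 24 and 72 h. Il1b differed by 3.33, 2.77 and 1.28 (limma, adjusted p = 0.00598), the chemokine Ccl5 by 2.49, 3.23 and 1.37 (limma, adjusted p = 0.00483) and the cytokine signalling inhibitor Socs3 by 1.01, 0.55 and 0.65 (limma, adjusted p = 0.0444). Il6 passed as well (limma, adjusted p = 0.00125), but it reached the median of all values only on the 24 h heme array, so its mean difference is at least 0.07. Without the 24 h pair 0 of these genes passed, without the 6 h pair 7 rose, and without the 72 h pair 5 rose. Of all 11516 genes, 11, 322 and 134 rose in these 3 settings. Gbp5, a GTPase that follows interferon gamma, differed by 1.63, -0.20 and -0.16 and did not pass (limma, adjusted p = 0.769).

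Genes of alternative activation by IL-4, the setting in which Arg1 is best known, had 0 of 16 past the test (18 listed), with medians of 0.00, 0.00 and -0.09. Without the 6 h pair 3 rose (Mgl2, Clec10a and Ccl17) and 1 fell (Retnla). Without the 72 h pair 1 rose (Ccl22, 1.77; limma, adjusted p = 0.00105) and 1 fell (Mrc1, -0.88; limma, adjusted p = 0.0307), and without the 24 h pair 0 passed. Of all 11516 genes, 322 rose and 199 fell without the 6 h pair, and 134 rose and 67 fell without the 72 h pair. Without the 24 h pair 11 of all genes rose and 1 fell. Single members of this list differed at 72 h, when Arg1 was highest. The C-type lectins Mgl2 and Clec10a had heme levels of 8.56 and 7.60 at 72 h, against vehicle levels of 6.49 and 5.69, with differences of 2.07 and 1.92 after -0.08 and -0.39 at 6 h (limma, adjusted p = 0.605 and 0.801 over the 3 time points). Their vehicle levels were higher at 6 h, 10.43 for Mgl2 and 7.92 for Clec10a, while their heme levels at 6 h were 10.35 and 7.53. The 72 h excess of Mgl2 and Clec10a thus went with lower vehicle levels, unlike that of Arg1, whose heme level rose. Without the 72 h pair their means were -0.04 and -0.26 (limma, adjusted p = 0.949 and 0.599). Retnla, by contrast, had differences of 0.38, -1.56 and -1.52, where both 72 h levels were below the median of all values and that difference has no exact size (limma, adjusted p = 0.317). The mannose receptor Mrc1 differed by -0.90, -0.86 and 0.03, and the chitinase-like Chil3 by 0.11, -0.27 and -0.45. The chemokine Ccl22 had the largest mean difference, 1.10 (1.94, 1.60 and -0.24; limma, adjusted p = 0.218).

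**Figure D4:**
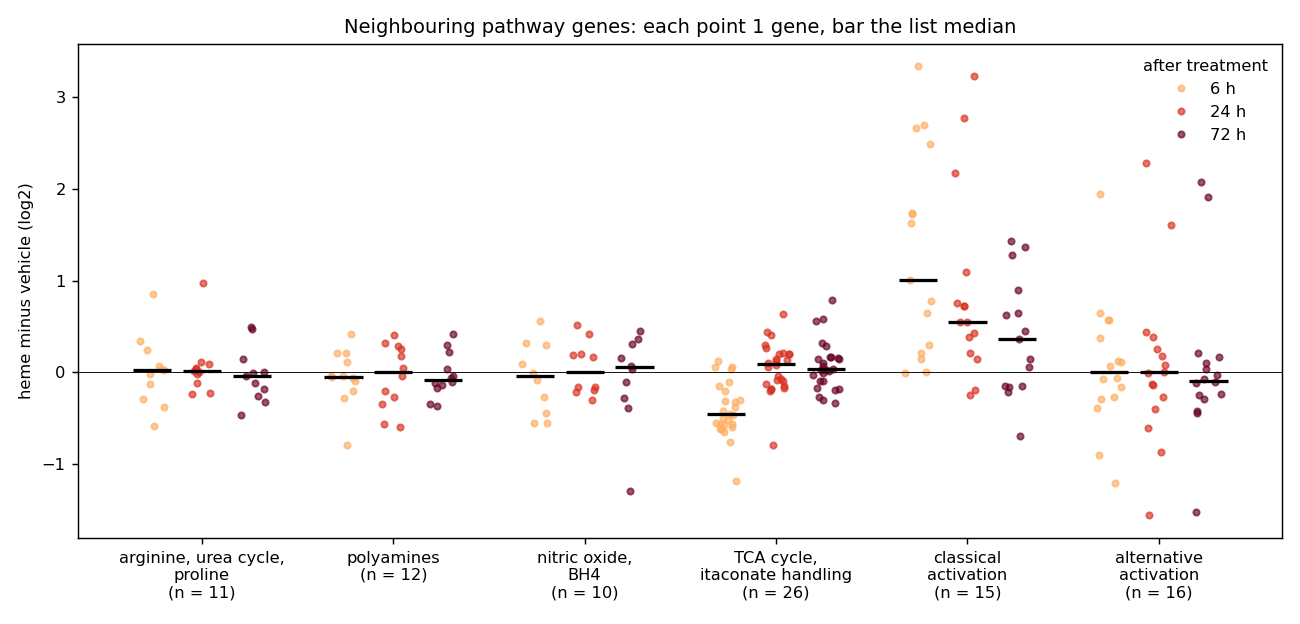
Heme minus vehicle difference (log2) of every gene with a usable level in 6 neighbouring lists at 6 h (orange), 24 h (red) and 72 h (dark red), 1 point per gene, with black bars for list medians. The tricarboxylic acid cycle genes sit low at 6 h (median -0.46) and the classical activation genes high (median 1.01), while the medians of the 4 remaining lists lie between -0.09 and 0.06.

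Markers of the cell types such cultures can hold were read beside these results. Macrophage markers were above the level filter in 11 of 12 listed genes, and the other had no probe set of its own. They had a mean log2 level of 10.16 to 10.76 on heme arrays and 10.28 to 10.58 on vehicle arrays. Neutrophil markers, of which 11 of 12 were above the filter, had mean levels of 7.92, 7.56 and 6.51 at 6, 24 and 72 h with heme, against 7.76, 6.62 and 6.32 with vehicle. Their median difference was 0.16, 0.96 and 0.03, so they were highest relative to vehicle at 24 h, when Acod1 and Arg2 were higher too, and their part in those values was not tested. At 6 h, where Acod1 differed most, 8 of the 11 neutrophil markers had a positive difference, the highest being Csf3r (0.97), Ngp (0.50) and Camp (0.35), and 3 a negative one, the lowest being Mmp8 (-0.66). Those 3 are 27.3% of the 11, while 63.5% of all genes had a negative difference at 6 h. Over the 3 time points 1 of the 11 rose (Csf3r), beside 130 of all 11516 genes. Without the 6 h pair 5 did (Csf3r, S100a8, S100a9, Camp and Ngp), beside 322 of all 11516 genes. Of 12 dendritic cell markers 8 were above the filter, with mean levels over all 12 of 7.23 to 7.60 on heme arrays and 7.25 to 7.36 on vehicle arrays. The median difference of these 8 was 0.25, 0.12 and -0.15 at 6, 24 and 72 h. At those times 3, 2 and 5 of the 8 were lower with heme, or 37.5%, 25% and 62.5%, against 63.5%, 53.2% and 44.7% of all genes. H2-Ab1 and Cd74, which macrophages also carry, were at 12.03 and 12.54 with heme at 6 h, against 11.81 and 12.22 with vehicle, and the integrin Itgax was at 11.14 with heme, against 10.87 with vehicle. Without the 6 h pair the mean differences of H2-Ab1, Cd74 and Itgax were 0.26, -0.03 and -0.26. Without the 72 h pair those of Ccr7, Batf3, Siglech, Dpp4 and Cd24a were 1.35, 0.77, 0.03, -0.08 and -0.38. At 2-fold, 1 of the 8 was higher at 6 h and 1 at 24 h, against 0.964% and 1.42% of all genes. At 72 h 1 was 2-fold lower, against 0.608% of all genes. The 4 others, Flt3, Zbtb46, Xcr1 and Cd209a, were below the filter on all arrays.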

How the data were processed

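The authors deposited log2 expression values, 1 column per array. Per the series' design text and the submitters' processing notes, these came from RMA with quantile normalization in ArrayStar, at versions that the sources used here do not state. RMA compresses differences of dim probe sets, and the number of arrays limits the precision. Of 35556 probe sets, 21789 name 1 gene, 1621 several and 12146 none in the platform annotation supplied, and 21701 could be tied to an up-to-date symbol (GRCm38.p6 table). A gene with several probe sets was represented by the brightest on average. Genes were kept if any array reached 5.37, the median of all values (11516 of 19936). Levels below it were set to it for values written "at least".

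All tests were two-sided used limma 3.58.1 (R 4.3.3; lmFit, then eBayes). Treatment and time were terms of a single fit to the 6 arrays, which left 2 residual degrees of freedom beside 7.17 from the prior, and the code was tested on simulated data. Nothing in the labels says whether arrays came from separate mice or cultures. The members, lists and tests were chosen with earlier results of these data known. The text names all 8 members, up to 4 genes past the test in each list, or the 1 with the largest mean difference where none passed, and the 3 genes most like each member whose levels spanned at least 1. Predicted genes were not named. Marker lists of mast cells and basophils, eosinophils, stroma and lymphocytes were also read. Alternatives were other normalizations, level filters and probe set rules, other eBayes settings, no time term, other fold thresholds and leaving out each time point.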

Additional observations from a re-analysis of the deposited data

Results flagged for a closer look

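Arg1 moved in opposite directions at the ends of the time course. Its heme minus vehicle difference was -0.77 at 6 h and 2.38 at 72 h, each beyond 1.5-fold, and these differ by 3.15 on the log2 scale. With 1 array per treatment and time, the difference between these 2 time points was not tested directly. The slope over the 3 time points had an adjusted p of 0.123 in limma against log2 hours and of 3.57e-07 against the order of the time points. The signs were the same after a second quantile normalization (-0.85 and 2.35), median-centring (-0.89 and 2.38) and cyclic loess (-0.77 and 2.34).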

How the results depend on the processing

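No treatment was repeated at any time, so no paired analysis beyond the time term was possible, and dim levels such as that of Nos2 limit what can be seen. For heme minus vehicle over the 3 time points, 198 genes passed; 18 did without the time term, and 12 to 521 when 1 pair of arrays was left out. Of the 6 members, 1 passed; 2 did with median-centring, 0 with robust eBayes, 0 without the time term and 0 to 4 with a pair left out. Those lowest counts come without the 24 h pair and those highest without the 6 h pair. The mean difference of Arg1 ran from -0.20 (without the 72 h pair) to 1.38 (without the 6 h pair); no other member changed sign under the alternatives run. For Acod1, 10 of 13 alternatives kept the call, with means of 2.55 to 4.03. For 24 h minus 6 h, 69 genes passed, against 171 with median-centring, 23 with cyclic loess, 126 with the filter at percentile 75, 109 with the mean of probe sets and 104 with robust eBayes. For 72 h minus 6 h, 0 members passed, against 2 with median-centring (Acod1 and Slc7a2), 1 with the filter at percentile 75 and 1 with the mean of probe sets (both Acod1). At thresholds of 1.5-fold and 4-fold in place of 2-fold, genes numbered 1180 and 24 (188 at 2-fold) at 6 h, 752 and 49 (220) at 24 h, and 793 and 34 (214) at 72 h. Members numbered 2 at 6 h for 1.5-fold, 4 and 1 at 24 h, and 1 at 72 h for 4-fold. The cause of these changes was not tested.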

Other observations

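Other cell type markers gave these values. Of 7 eosinophil genes listed 4 had a usable level, and Siglecf, a sialic acid receptor also found on macrophages of the lung, had heme levels of 6.88, 7.21 and 6.91 at 6, 24 and 72 h, against vehicle levels of 7.59, 7.62 and 8.04 (limma, adjusted p = 0.0636). With median-centring 1 of these 4 genes fell, beside 117 of 11541 genes in that setting. Without the 6 h pair Siglecf fell (-0.77; limma, adjusted p = 0.00582) and Prg2, a granule protein, rose (0.61; limma, adjusted p = 0.0357). Among macrophage, dendritic cell and neutrophil markers 1 each rose (of 11, 8 and 11), while 1.13% of all genes tested did. These were the LPS co-receptor Cd14 (1.09; limma, adjusted p = 0.00825), the chemokine receptor Ccr7 (1.16; limma, adjusted p = 0.0279) and the G-CSF receptor Csf3r (1.13; limma, adjusted p = 0.00661). Each of these calls was lost without the 24 h pair (limma, adjusted p = 0.226, 0.302 and 0.169). Without the 6 h pair 5 of 11 neutrophil markers rose, and the Fc receptor Fcgr1 among macrophage markers (-0.61; limma, adjusted p = 0.036) and Cd24a among dendritic cell markers (-0.89; limma, adjusted p = 0.000551) fell. Of all 11516 genes, 322 rose and 199 fell without that pair. Mast cell and basophil markers were above the level filter in 2 of 10 genes, the largest difference being that of Prss34 (0.55, or 0.29 with dim levels set to the median of all values; limma, adjusted p = 0.205), stromal and endothelial markers in 5 of 10, led by Kdr (-0.55, or -0.35 with dim levels set to the median of all values; limma, adjusted p = 0.145), and lymphocyte markers in 1 of 8 measured, Cd79b (0.12; limma, adjusted p = 0.881).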
